A study of Drosophila melanogaster with 6 samples.

Results

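The glutathione S-transferases (GSTs) of Drosophila melanogaster were compared between wt larvae and larvae carrying the CG1603PBac allele, class by class. Members were the genes whose symbol is Gst followed by a class letter and a number. This rule found 35 of the 16727 genes in the count tables: 11 of class D (delta), 14 of class E (epsilon), 3 of class O (omega), 1 of class S (sigma), 4 of class T (theta) and 2 of class Z (zeta). All 35 were matched to the Ensembl annotation by symbol, and that annotation holds no further gene under the same rule.

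Poly(A) RNA of larvae, taken at 48 hr from egg laying, was sequenced from 3 wt and 3 CG1603PBac samples, which the labels call biological replicates. CG1603PBac is a PiggyBac transposon insertion in CG1603, a gene for a zinc finger protein that the study examined as a regulator of nuclear genes for mitochondrial proteins. Per the study's methods the allele was backcrossed for 6 generations to w1118, and homozygous larvae were picked out by the absence of a GFP-marked CyO balancer chromosome. Both genotypes were untreated. The mutant is a single allele whose homozygotes, per the study, arrest as second-instar larvae, and the instar of the sampled larvae is not given. The strain of the wt larvae is not named in the sources used here, so alleles that differ between the strains cannot be told apart from the insertion.

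GSTs join the tripeptide glutathione to reactive or foreign molecules, which makes these more soluble and easier to export, and some also reduce peroxides or isomerize metabolites. The delta and epsilon classes are expanded in insects, sit largely in gene clusters and are known for their part in insecticide resistance. The omega, sigma, theta and zeta classes are shared with other animals. In the fly the transcription factor CncC (from the gene cnc), held in check by Keap1, is a known activator of GST genes, with GstD1 as its usual reporter. GSTs are known to be expressed in the midgut, the Malpighian tubules and the fat body, the main tissues of detoxification in insects.

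Library totals were 27100927 to 36016914 counts in genes. The reads left unaligned came to 8.77 ± 0.354% in wt libraries and to 31.4 ± 0.447% in CG1603PBac libraries (SD, n = 3 each). Counts of CG1603 itself were higher in the mutant (956, 999 and 1072) than in wt (613, 493 and 571), and a count over the whole gene does not check an insertion. Levels are given as CPM, counts divided by library size with TMM factors, which correct for differences in RNA composition. Over all genes tested the log2 fold change had a median of 0.06 with these factors and 0.45 with library totals alone, so a change below about that difference depends on the scaling. GST genes whose direction depends on it are named below.

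Of the 35 GST genes, 18 rose and 9 fell in CG1603PBac larvae (edgeR's quasi-likelihood test, Benjamini-Hochberg adjusted p under 0.05 over the 11306 genes tested). Together 77.1% of the GST genes changed, and 69.7% of all genes tested did. Among all genes tested 34.8% rose and 34.9% fell. The rise exceeded 2-fold for 9 GST genes, namely GstD2, GstD5, GstD6, GstD9, GstD11, GstE1, GstE4, GstE8 and GstE10 (17.0% of all genes tested rose as much), and the fall exceeded 2-fold for GstD7, GstE5 and GstZ1 (15.0% of all genes). For 28 GST genes the CPM of the genotypes did not overlap, 18 being higher and 10 lower in the mutant, whereas this held for 73.8% of all genes. These counts of higher genes include GstD6 and GstD11, which passed the filter on low counts only with the mutant libraries, where they were high. The rises of GstD6 and GstD11 therefore add nothing to a comparison with the shares of all genes. The median log2 fold change was 0.26 over the GST genes (quartiles -0.24 and 1.02) and 0.06 over all genes (quartiles -0.65 and 0.81). With library totals alone 24 GST genes rose and 6 fell, and 50.1% and 22.9% of all genes did. GstD8, GstD10, GstE2, GstE12, GstE13 and GstZ2 then counted as higher, and GstS1 and GstT3 no longer passed.

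All 35 members passed the filter on low counts. The lowest count was 3, for GstD6 in a wt library, and 29 members had at least 100 counts in every library. GstD6 had 3, 6 and 15 counts in wt libraries and 42 to 59 in mutant ones, so it entered the test through the mutant group. GstD11 had 53, 29 and 8 counts in wt libraries and 72 to 145 in mutant ones, and its wt libraries alone would not have passed the filter.

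**Figure D1:**
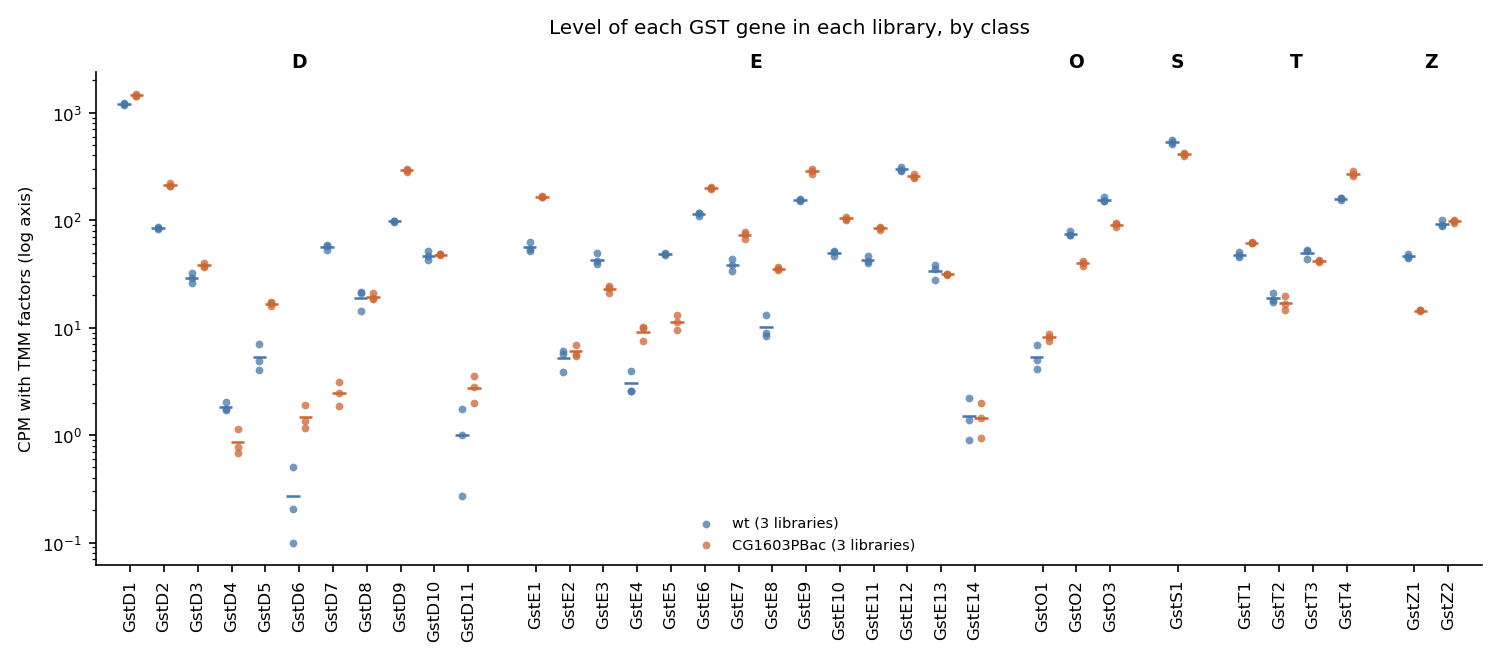
Level of each GST gene (CPM with TMM factors, log axis) in the 3 wt and 3 CG1603PBac libraries, with genes ordered by class and bars at the means. GstD1 is the most abundant gene in both genotypes, and GstD7 goes from a mean of 56.5 CPM in wt to 2.48 CPM in the mutant.

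**Figure D2:**
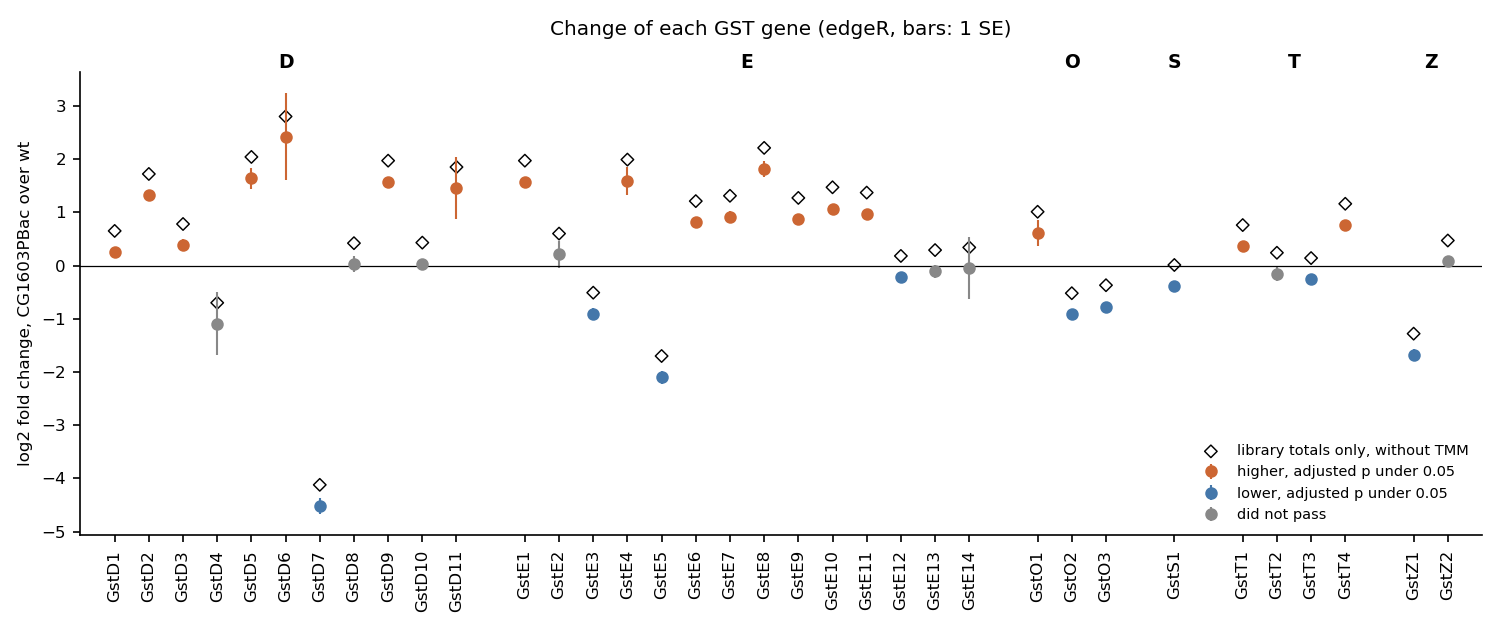
Log2 fold change of each GST gene, CG1603PBac over wt, by edgeR with TMM factors (filled points, bars of 1 SE, coloured by the call) and with library totals alone (open diamonds). GstD7 is lowest at -4.52 and GstD6, with 3 to 15 counts in wt libraries, highest at 2.42. GstE12, GstE13, GstE14, GstS1, GstT2 and GstT3 lie on opposite sides of 0 under the 2 scalings.

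Class D changed in both directions, with 7 genes higher, 1 lower and 3 that did not pass the test. Together 72.7% of its genes were called, near the 69.7% of all genes tested. GstD1, a DDT-dehydrochlorinating enzyme and a common marker of oxidative stress, was measured at 1190, 1210 and 1230 CPM in wt and 1420, 1440 and 1480 CPM in CG1603PBac libraries. The genotypes did not overlap, and GstD1 rose 1.2-fold (log2 fold change 0.26, SE 0.04, adjusted p = 1.56e-06). GstD1 made up 33.3 ± 0.483% of all GST counts in wt and 32.8 ± 0.151% in the mutant (SD, n = 3). The share of the most abundant GST in the family total therefore moved little. Within class D its share went from 78.0 ± 0.444% to 69.6 ± 0.0295% of counts. With library totals alone the log2 fold change of GstD1 was 0.65.

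GstD7 gave the largest change of any member. Its level was 53.0, 59.1 and 57.4 CPM in wt and 3.09, 1.88 and 2.48 CPM in CG1603PBac libraries. All 3 mutant libraries were far below all 3 wt libraries, and GstD7 fell 22.9-fold (log2 fold change -4.52, SE 0.15, adjusted p = 1.81e-16). Its rank among the 35 genes by CPM per kb of exon went from 10 to 31. The gene has a single exon at 3R 12378500 to 12379255 (dm6, plus strand).

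GstD6, the gene next to GstD7 at 3R 12377128 to 12377907, went the other way from a very low level. It was at 0.0996, 0.207 and 0.507 CPM in wt and 1.90, 1.16 and 1.34 CPM in CG1603PBac libraries. The groups were apart and the log2 fold change reached 2.42 (SE 0.82, adjusted p = 0.0131), but the call did not hold without CG1603PBac replicate 1 (2.19, adjusted p = 0.0857). GstD5, at 3R 12375733 to 12376572, was at 7.07, 4.07 and 4.90 CPM in wt and 15.9, 17.2 and 17.1 CPM in the mutant. It rose 3.12-fold in mutant libraries that lay close together (log2 fold change 1.64, SE 0.20, adjusted p = 2.97e-07).

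The other members of class D were as varied. GstD9 rose from 97.8 ± 1.25 to 291 ± 8.83 CPM (log2 fold change 1.57) and GstD2 from 84.7 ± 1.85 to 212 ± 6.54 CPM (1.32), which placed GstD9 at rank 2 in the mutant by CPM per kb after rank 8 in wt. GstD3 rose less (0.38). GstD11, the outermost gene of the cluster, had a log2 fold change of 1.45 on 8 to 53 counts in wt (adjusted p = 0.0313), and its call was lost without wt replicate 3 (0.99, adjusted p = 0.0742), CG1603PBac replicate 1 (1.45, 0.0803) or CG1603PBac replicate 3 (1.24, 0.155). GstD8 and GstD10 both had a log2 fold change of 0.03 and overlapped between genotypes. GstD4 had lower values in every mutant library but did not pass the test (-1.09, adjusted p = 0.11), and with only genes of at least 10 counts in every library kept it did (-1.05, adjusted p = 0.0289).

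Class E had 8 genes higher, 3 lower and 3 that did not pass, so 78.6% of its genes were called, and 69.7% of all genes tested were. GstE12, its most abundant gene, lies on its own at 2R 24766718 to 24768172, away from the epsilon cluster. It was at 313, 294 and 289 CPM in wt and 248, 253 and 270 CPM in CG1603PBac libraries. The genotypes did not overlap, and the log2 fold change was -0.22 (SE 0.05, adjusted p = 5.91e-04). With library totals alone it was 0.18, so the direction of GstE12 depends on the scaling.

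The largest rises in class E were those of GstE8 and GstE4. GstE8 was at 13.0, 8.87 and 8.31 CPM in wt and 35.0, 34.5 and 36.8 CPM in the mutant. All mutant libraries exceeded every wt library by more than the wt spread (log2 fold change 1.81, SE 0.15, adjusted p = 8.05e-10). GstE4 was low, with 3.95, 2.59 and 2.60 CPM in wt and 10.2, 7.52 and 9.87 CPM in the mutant. It rose 3.01-fold without overlap (log2 fold change 1.59, SE 0.26, adjusted p = 1.20e-05).

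GstE5, the neighbour of GstE4, and GstE3 fell. GstE5 was at 49.0, 48.7 and 47.4 CPM in wt and 9.46, 13.1 and 11.3 CPM in CG1603PBac libraries. The wt libraries lay within 2 CPM of each other, and GstE5 fell 4.28-fold (log2 fold change -2.10, SE 0.12, adjusted p = 2.42e-12). GstE3 was at 41.4, 49.0 and 38.7 CPM in wt and 24.5, 23.5 and 20.9 CPM in the mutant. Its genotypes did not overlap either (log2 fold change -0.91, SE 0.12, adjusted p = 4.49e-07).

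Of the remaining epsilon genes, GstE1 (1.57), GstE10 (1.07), GstE11 (0.97), GstE7 (0.92), GstE9 (0.88) and GstE6 (0.82) rose on the log2 scale, and all 6 had genotypes that did not overlap. GstE9 and GstE6 were the most abundant of these, at 155 ± 3.31 and 113 ± 4.19 CPM in wt and 285 ± 13.3 and 200 ± 3.96 CPM in the mutant. GstE2 had a log2 fold change of 0.21 (adjusted p = 0.474) and GstE13 of -0.11 (adjusted p = 0.429), and neither passed the test. GstE14, known as noppera-bo for its part in ecdysteroid synthesis in the prothoracic gland, had 1.51 ± 0.673 CPM in wt against 1.45 ± 0.529 CPM in the mutant (log2 fold change -0.05, SE 0.58), and no change was detectable at this depth.

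Class O had 1 gene higher and 2 lower, where 34.8% of all genes tested rose and 34.9% fell. Omega GSTs have a cysteine in the active site and act as thiol transferases and dehydroascorbate reductases. GstO3, the most abundant, was at 163, 152 and 150 CPM in wt and 86.7, 92.4 and 93.9 CPM in the mutant. GstO2 was at 72.6, 73.0 and 78.7 CPM in wt and 42.1, 39.7 and 37.6 CPM in the mutant. Neither overlapped between genotypes, with log2 fold changes of -0.77 (SE 0.06, adjusted p = 2.78e-10) for GstO3 and -0.91 (SE 0.08, adjusted p = 2.79e-09) for GstO2. GstO1, far lower, was at 4.95, 6.94 and 4.12 CPM in wt and 7.50, 8.71 and 8.19 CPM in the mutant. Its highest wt library came close to its lowest mutant library (log2 fold change 0.61, SE 0.24, adjusted p = 0.0281), and the call was lost without wt replicate 1 (0.55, adjusted p = 0.0684), wt replicate 3 (0.44, 0.108), CG1603PBac replicate 2 (0.56, 0.0945) or CG1603PBac replicate 3 (0.61, 0.0728).

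GstS1, the only sigma GST and an abundant protein of fly flight muscle that conjugates the lipid peroxidation product 4-hydroxynonenal, lies at 2R 17093246 to 17099501. It was at 512, 537 and 558 CPM in wt and 398, 414 and 420 CPM in CG1603PBac libraries. The groups were apart with TMM factors (log2 fold change -0.38, SE 0.04, adjusted p = 1.10e-07), whereas with library totals alone the log2 fold change was 0.01 (adjusted p = 0.855). Relative to the other GSTs, GstS1 went from 14.7 ± 0.621% to 9.29 ± 0.105% of all GST counts, a share that no scaling of the libraries alters.

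Class T had 2 genes higher, 1 lower and 1 that did not pass. GstT4, on X at 13404749 to 13409323, was at 162, 161 and 155 CPM in wt and 258, 287 and 269 CPM in the mutant. It rose 1.70-fold without overlap (log2 fold change 0.77, SE 0.05, adjusted p = 2.60e-11). GstT1 was at 50.7, 45.1 and 47.8 CPM in wt and 60.8, 62.4 and 61.7 CPM in the mutant. It rose less (0.37, SE 0.08, adjusted p = 4.97e-04). GstT3 was at 53.2, 51.9 and 43.7 CPM in wt and 43.0, 40.4 and 41.4 CPM in the mutant. The lowest wt library of GstT3 was close to the mutant ones (log2 fold change -0.26, SE 0.10, adjusted p = 0.0220), the log2 fold change was 0.14 with library totals alone, and the call was lost without wt replicate 1 (-0.21, adjusted p = 0.0854), wt replicate 2 (-0.23, 0.0573), CG1603PBac replicate 2 (-0.23, 0.0789) or CG1603PBac replicate 3 (-0.25, 0.0629). GstT2 did not pass (-0.15, adjusted p = 0.365, and 0.24 with library totals alone), and 25.1% of its exon sequence lies opposite CG12926.

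The 2 zeta genes lie next to each other on the minus strand of 3R, GstZ1 at 9455517 to 9456546 and GstZ2 at 9456815 to 9460652. Zeta GSTs are maleylacetoacetate isomerases, which act late in the breakdown of tyrosine. GstZ1 was at 45.6, 44.7 and 48 CPM in wt and 14.5, 14.6 and 14.2 CPM in CG1603PBac libraries. Replicates agreed closely in both genotypes, and GstZ1 fell 3.20-fold (log2 fold change -1.68, SE 0.11, adjusted p = 9.80e-12). GstZ2 was at 89.9, 88.4 and 99.9 CPM in wt and 93.8, 99.0 and 100 CPM in the mutant. The genotypes overlapped and GstZ2 did not pass the test (log2 fold change 0.08, SE 0.07, adjusted p = 0.333).

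Summed over each class, D rose from 1554 ± 22.1 to 2082 ± 41.8 CPM and E from 898.1 ± 30.6 to 1286 ± 23.0 CPM, given as a description without a test. Class T went from 275.6 ± 11.1 to 391.3 ± 15.4 CPM, and without GstT4 the log2 ratio of its sum was 0.05 instead of 0.51. Class O went from 235.2 ± 4.72 to 138.9 ± 2.35 CPM, class S from 535.8 ± 23.0 to 410.7 ± 11.8 CPM and class Z from 138.9 ± 7.96 to 112.1 ± 3.34 CPM, the last 2 with log2 ratios of 0.01 and 0.08 under library totals alone. All GSTs together went from 3638 ± 16.8 to 4421 ± 85.5 CPM. As shares of all GST counts, class D went from 42.7 to 47.1% and class E from 24.7 to 29.1%, while class O went from 6.46 to 3.14% and class Z from 3.82 to 2.54%.

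**Figure D3:**
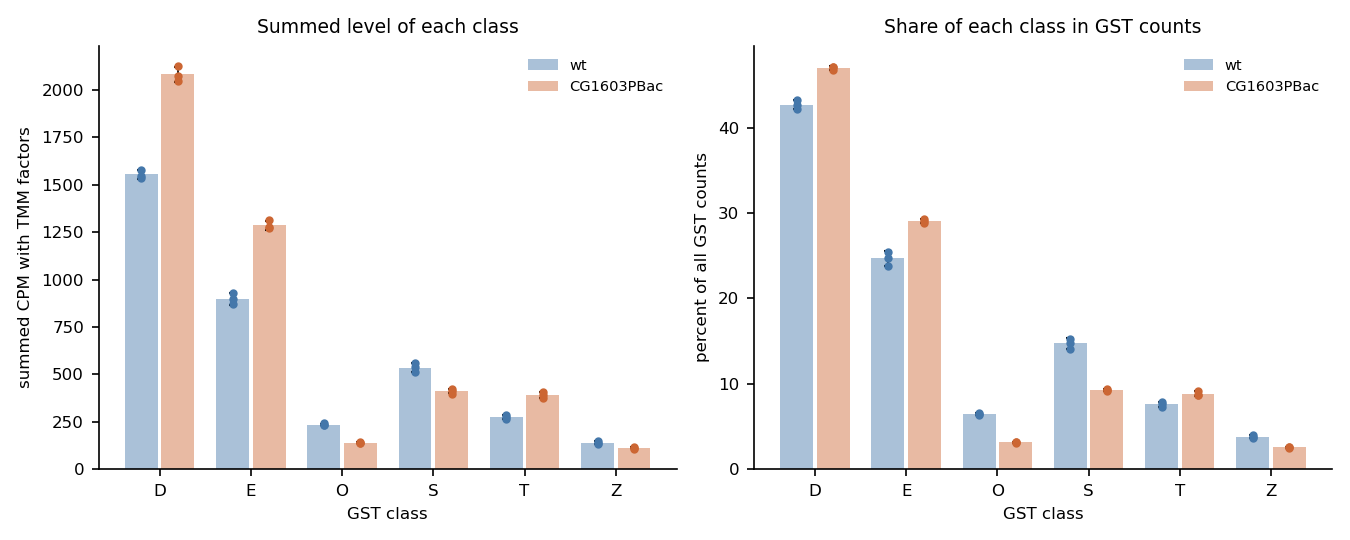
Left, summed CPM with TMM factors of each GST class. Right, the share of each class in all GST counts (percent). Bars are means of 3 libraries with SD, and points are libraries. Class D goes from 42.7 to 47.1% and class S from 14.7 to 9.29% of GST counts.

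Both the delta and the epsilon cluster held genes that rose and genes that fell. The delta cluster spans 3R 12364776 to 12385624 (dm6) and holds all 11 class D genes, in the order GstD10, GstD9 and GstD1 on the minus strand and GstD2 to GstD8 and GstD11 on the plus strand. The epsilon cluster spans 2R 18396638 to 18409835 and holds GstE10 on the minus strand and GstE1 to GstE9 on the plus strand. Within it 7 genes rose, 2 fell and 1 did not pass, with a median log2 fold change of 0.90, and of the 4 epsilon genes elsewhere 1 rose, 1 fell and 2 did not pass (median -0.08). The single-exon genes numbered 16, of which 10 rose and 3 fell, and of the 19 spliced genes 8 rose and 6 fell. For comparison, 34.8% of all genes tested rose and 34.9% fell, and no difference by location or by exon number was tested.

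Ratios between neighbours in 1 library do not depend on how libraries are scaled. GstD6 had 0.00188, 0.00350 and 0.00882 counts for each count of GstD7 in wt libraries, and 0.615, 0.618 and 0.539 in mutant ones. GstD8, on the other side of GstD7, went from 0.336 ± 0.0837 to 8.01 ± 1.55. The ratio of GstE5 to GstE4 went from 16.5 ± 3.55 to 1.27 ± 0.419 and that of GstE5 to GstE6 from 0.427 ± 0.00878 to 0.0567 ± 0.0102. The ratio of GstZ1 to GstZ2 went from 0.498 ± 0.0147 to 0.148 ± 0.00622. GstD7, GstE5 and GstZ1 thus fell relative to the genes beside them, in every mutant library against every wt library. Of these neighbours GstD6, GstE4 and GstE6 were themselves called higher, so their ratios hold that rise too. GstD6 also had only 3, 6 and 15 counts in wt libraries. GstD8 and GstZ2 did not pass the test with TMM factors. Reads that align to more than 1 place were set apart by the counting (5.16 ± 0.188% of reads in wt and 6.81 ± 0.0193% in the mutant), and how many came from similar GST copies was not tested, so the split of reads among close paralogs is uncertain.

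**Figure D4:**
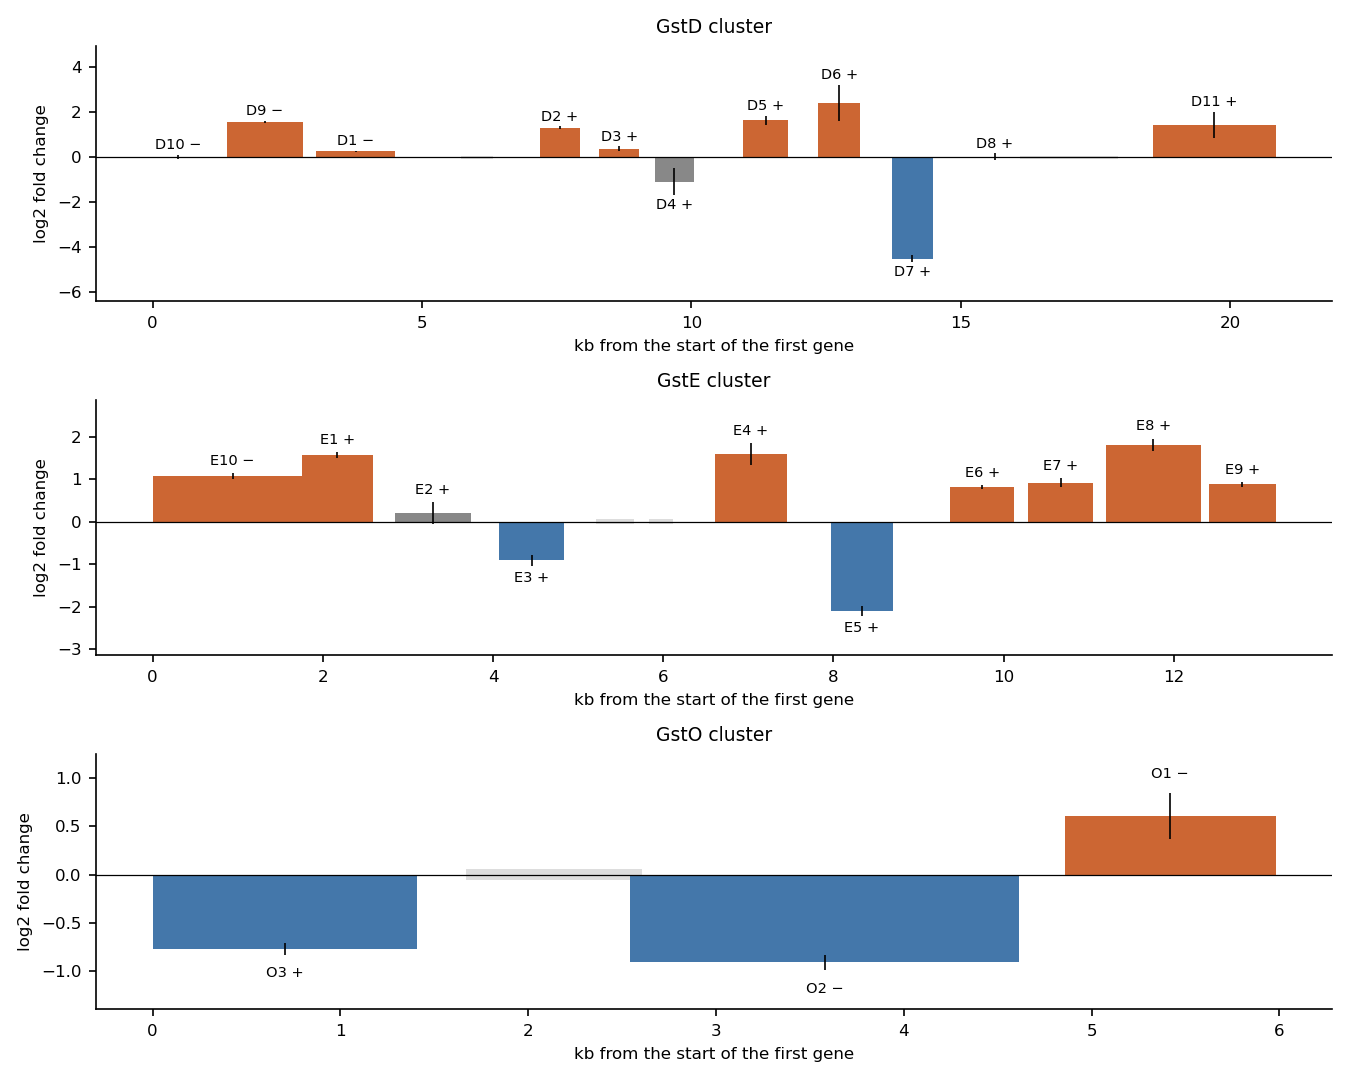
Log2 fold change (CG1603PBac over wt, bars with 1 SE) of the genes of the GstD, GstE and GstO clusters against distance in kb from the start of the first gene, with + and − for the strand and bar width for gene length. Orange passed as higher, blue as lower, dark grey did not pass, and light grey marks other annotated genes with no value drawn. GstD7 at -4.52 lies between GstD6 at 2.42 and GstD8 at 0.03.

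Of 6 listed genes of glutathione synthesis 4 were tested, 3 of which fell and none of which rose, where 34.9% of all genes tested fell: Gclc, the catalytic subunit of the rate-limiting glutamate-cysteine ligase (log2 fold change -0.82), Gclm, its modifier subunit (-0.73), and Eip55E, the cystathionine gamma-lyase that supplies cysteine (-1.11). Cbs, which acts before it, did not pass (-0.16, and 0.23 with library totals alone). The glutathione synthetase gene CG32495 (Gss2) is listed at 0 in all 6 libraries, and so is GS. The symbol GS is a synonym of several genes in RefSeq and was taken as the other synthetase, Gss1, because each of the others has a row of its own, so its identity is less certain.

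Of 5 genes of glutathione breakdown 3 rose and 1 fell, where 34.8% and 34.9% of all genes tested did. The highest were CG17636 (0.96) and CG1492, which did not pass (0.63, adjusted p = 0.0634). The lowest were CG4829 (-1.42) and CG10365, which rose (0.35). Of 10 tested genes for other glutathione-dependent enzymes and export, 3 rose and 6 fell. The lowest were CG1707 (glyoxalase 1, -1.34) and CG14407 (the glutaredoxin Grx5, -1.26), and the highest were the microsomal GST relative CG33178 (0.74) and the conjugate exporter MRP (0.42). CG33178 was low, at 5.68 CPM in wt and 9.47 CPM in the mutant. The more abundant microsomal GST gene Mgstl fell from 69.5 to 39.0 CPM (-0.83), and 29.2% of its exon sequence lies opposite an antisense gene. The direction of MRP turned when the trend on exon length was removed (-0.19). CG1707 and CG33178 lie opposite antisense genes over much of their exons, and the strand setting of the counting is not given in the sources used here.

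Of 3 listed regulators 3 were called higher, where 34.8% of all genes tested rose: maf-S, the partner of CncC (0.69), cnc (0.64) and Keap1 (0.35). After removal of the exon length trend cnc was at -0.07 and Keap1 did not pass (0.20, adjusted p = 0.152), and Keap1 also lost its call without wt replicate 1 (0.30, adjusted p = 0.0557), wt replicate 2 (0.25, 0.0808), CG1603PBac replicate 2 (0.32, 0.0590) or CG1603PBac replicate 3 (0.32, 0.0579). Of 5 genes of tyrosine breakdown, the pathway of the zeta GSTs, 4 fell and none rose, where 34.9% of all genes tested fell. The lowest were CG11796 (4-hydroxyphenylpyruvate dioxygenase) at -1.38 and hgo (homogentisate 1,2-dioxygenase) at -0.74. The smaller values were CG1461 (-0.13, adjusted p = 0.0184), Faa, which did not pass (-0.14), and Hn, the phenylalanine hydroxylase that makes tyrosine (-0.24). The call of CG1461, whose exons overlap CG46317 on the same strand over 78.7% of their length, was lost without CG1603PBac replicate 1 (-0.12, adjusted p = 0.0578), without CG1603PBac replicate 2 (-0.12, 0.0765) and when every library had to hold at least 10 counts (-0.09, 0.0837). Under library totals alone CG1461 (0.27), Faa (0.26) and Hn (0.15) rose and the other 2 genes fell, so the direction of the list depends on the scaling. Among genes with a GST fold outside the rule, the translation factor subunit Ef1gamma fell (-0.87) and gfzf rose (0.36, adjusted p = 0.0163), a call lost without wt replicate 1 (0.19, adjusted p = 0.0899) or CG1603PBac replicate 1 (0.30, 0.0692). Clic (0.09) and se, the omega GST of red eye pigment synthesis that lies between GstO3 and GstO2 (0.39, SE 1.16), did not pass.

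Markers of the larval tissues also differed between the genotypes, where 34.8% of all genes tested rose and 34.9% fell. Whole larvae were measured, so fewer cells of a type and less RNA per cell cannot be told apart. Of 8 midgut markers 2 rose and 4 fell, with a summed level of 5837 to 6912 CPM in wt and 4461 to 4675 CPM in the mutant. Of 6 Malpighian tubule markers 1 rose and 2 fell (170.9 to 197.8 CPM in wt, 151.2 to 157.1 CPM in the mutant). Of 4 tested fat body markers 3 fell and none rose (2221 to 2589 CPM in wt, 604.0 to 668.3 CPM in the mutant), and Fbp1 was at 0 in all libraries. The summed levels of these 3 lists were lower in every mutant library with TMM factors, but single markers differed. The midgut markers that rose were Amy-p (log2 fold change 2.46) and alphaTry (1.03), and the Malpighian tubule marker was Uro (2.10). Rfabg alone was at 2160 of the 2391 CPM of the fat body list in wt and 517 of 644.8 CPM in the mutant (means). As a plain share of gene counts the genotypes overlapped for the midgut list (0.518 to 0.599% in wt, 0.513 to 0.534% in the mutant) and for the Malpighian tubule list (0.0148 to 0.0175% and 0.0173 to 0.0180%), and only the fat body list stayed lower in every mutant library (0.192 to 0.230% and 0.0690 to 0.0768%).

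All 8 muscle markers fell (51780 to 56330 CPM in wt, 18370 to 18590 CPM in the mutant), and all 7 neuron markers rose (231.3 to 262.2 CPM in wt, 740.6 to 770.8 CPM in the mutant). The muscle marker sls (-0.09, adjusted p = 0.0311) was at 0.30 with library totals alone, and its call was lost without wt replicate 1 (-0.08, adjusted p = 0.0890), CG1603PBac replicate 2 (-0.08, 0.127) or CG1603PBac replicate 3 (-0.08, 0.127). Of the glia list 2 of 4 rose and none fell (358.9 to 390.0 and 393.9 to 409.4 CPM), of the hemocyte list 2 of 5 rose and 1 fell (177.1 to 185.6 and 223.5 to 241.1 CPM), and of the cuticle list 1 of 4 rose and 2 fell (134.5 to 140.6 and 56.46 to 61.06 CPM). Of 7 prothoracic gland markers none rose and 2 fell (30.70 to 34.45 and 20.25 to 25 CPM). With library totals alone all 4 glia markers rose, and 2 prothoracic gland markers rose while 2 fell. As a plain share of gene counts the genotypes overlapped for the prothoracic gland list (0.00268 to 0.00298% in wt, 0.00231 to 0.00287% in the mutant). The part of any of these lists in the GST values was not tested.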

How the data were processed

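The deposited values were raw counts per gene from 6 libraries of 100 bp paired reads, made by the authors with FastQC, STAR (genome dm6) and HTSeq, without normalization or pooling. The annotation version and the strand setting of the counting are not given in the sources used here. HTSeq categories that name no gene (20.5 ± 0.446% of reads in wt, 45.2 ± 0.330% in CG1603PBac, SD, n = 3) stayed out of library sizes and tests. Replicates differed by more than sampling noise (chi-square per gene 7.46 to 17.0 over genes with at least 20 counts) and were kept as separate samples.

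Positions and exon lengths came from Ensembl release 115 by symbol. Counts were tested with edgeR 4.0.16 in R 4.3.3 (TMM, filterByExpr with a minimum count of 10 and a minimum total of 15, robust quasi-likelihood F test, genotype as the only term), adjusted by Benjamini-Hochberg over 11306 genes at 0.05. A 2-fold change is a log2 fold change beyond 1 with that threshold. Steps were tested on simulated counts. The alternatives were DESeq2 1.42.0, its size factors in edgeR, library totals alone, limma-voom (limma 3.58.1), no filter, at least 10 counts in every library, leaving out each library, a replicate block, and taking out the dependence on exon length (loess of span 0.5), both alone and with that block.

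Every member is accounted for by class. Values per library are given for the most abundant gene of each class and the 2 largest rises and falls past the threshold, and the 2 highest and 2 lowest of each pathway list are named. Hn, sls, Mgstl, Amy-p, alphaTry, Uro and Rfabg were named after their values were seen. Members and lists were chosen with earlier results of these data known, and the older symbols of the 2 glutathione synthetase genes were corrected after the files were read.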

Additional observations from a re-analysis of the deposited data

Results flagged for a closer look

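The share of reads that were not aligned, which no comparison used, was 31.4 ± 0.447% in CG1603PBac libraries, above the 8.77 ± 0.354% of the wt libraries (SD, n = 3 each). Its part in the GST values was not tested.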

How the results depend on the processing

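The GST genes called higher numbered 16 to 18 and those called lower 8 to 9 when each library was left out in turn, and 18 and 9 with DESeq2, DESeq2 size factors, limma-voom, no filter, the length trend removed or the replicate block. Same-numbered wt and CG1603PBac samples did not deviate together (correlations 0.00573, -0.0204 and -0.00837), so the numbers are not taken as pairs. With at least 10 counts in every library the counts were 16 and 10, and with library totals alone 24 and 6. In the first of these settings GstD6 and GstD11 were not tested at all, and GstD4 was added as lower. Of the 27 called GST genes 21 held their call in all 15 alternatives. Library totals alone gave log2 ratios of summed levels of 0.81 (D), 0.91 (E), -0.37 (O), 0.01 (S), 0.90 (T) and 0.08 (Z). With TMM factors and without the most abundant gene of the class they were 0.89 (D), 0.78 (E), 0.05 (T) and -1.68 (Z). Library totals alone turned the log2 fold changes of GstE12 (0.18), GstE13 (0.29), GstE14 (0.34), GstS1 (0.01), GstT2 (0.24), GstT3 (0.14), CG1461 (0.27), Cbs (0.23), Faa (0.26), Hn (0.15) and sls (0.30). These turns follow from the scaling itself. Removal of the length trend turned MRP (-0.19, and -0.21 with the replicate block), cnc (-0.07 and -0.08) and GstE14 (0.02), and limma-voom gave GstE14 0.00. Over the libraries left out in turn, the log2 fold change crossed 0 for GstD8 (-0.15 to 0.12), GstD10 (-0.04 to 0.09), GstE14 (-0.34 to 0.33) and se (-0.76 to 0.87), none of which passed the test. The cause of the turns under other settings than library totals was not tested. GSTs with few counts (GstD4, GstD6, GstD11, GstE14) have wide errors.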
